A study of Mus musculus with 59 samples.

Results

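The MHC class II genes H2-Aa, H2-Ab1, H2-Eb1, H2-DMa, H2-DMb1, Cd74 and Ciita were followed in liver RNA of 4-week-old mice on Affymetrix expression arrays. Of these 7 genes, 6 were measured by 14 probe sets that carry exactly 1 gene symbol, out of 18193 genes and 45101 probe sets on the array. H2-DMb1 was dropped, since its probe sets also carry a second symbol. The gene set was chosen by measured values of these arrays, namely the higher H2-Eb1 and Cd74 signal in E2F3b knock-in than in wild-type liver, so every value of E2F3b knock-in against another group is given for these genes as a description, with no test. The main probe set of a gene is the one with the highest mean over the arrays of its normalization, and signals are log2 values normalized by the authors.

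All mice had a mixed background of the strains FVB/NT, 129S1/Svlmj and C57BL/6NT. Wild-type mice (wt, 12 arrays) and mice with an E2f3a knock-out (3aKO, 10 arrays) were deposited in both of 2 normalizations of the same arrays. Mice with an E2F1 knock-in (1KI, 10 arrays) share normalization 1 with them, and mice with an E2F3b knock-in (3bKI, 5 arrays) share normalization 2. 1KI and 3bKI were not compared, since no normalization holds both. The sources used here do not give the knock-in locus, the zygosity of the alleles or the H2 haplotype of each mouse. They also do not say whether each array is a separate mouse, so p-values measure only how far these samples spread, which may be technical.

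Class II molecules present peptides taken up from outside the cell to CD4 T cells. H2-Aa and H2-Ab1 encode the alpha and beta chains of I-A, and H2-Eb1 encodes the beta chain of I-E, whose alpha chain comes from H2-Ea. Cd74 encodes the invariant chain, which fills the groove during transport, H2-DMa and H2-DMb1 encode the chains of H2-DM, which exchanges its remnant for peptide, and Ciita encodes the coactivator that switches the whole group on. In liver these genes are known mainly from Kupffer cells, dendritic cells and B cells, with sinusoidal endothelium at lower levels, and interferon gamma induces them through Ciita. The H2 genes differ in sequence between inbred strains.

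Ciita acts through factors bound to the X and Y boxes that class II promoters share. The bases before the start of H2-Eb1 and H2-Aa are shown because these are the members that moved differently across the arrays below. They are from RefSeq (GRCm38.p6, a C57BL/6J sequence), 5′ to 3′ on the strand of the gene, at chr17:34305687-34305866 (plus strand) for H2-Eb1 and chr17:34287824-34288003 (minus strand) for H2-Aa. Each run holds the 180 bases before the start, and capitals mark a core of the X box (GCAAC) and of the Y box (TGATTGG, which holds an inverted CCAAT).
H2-Eb1: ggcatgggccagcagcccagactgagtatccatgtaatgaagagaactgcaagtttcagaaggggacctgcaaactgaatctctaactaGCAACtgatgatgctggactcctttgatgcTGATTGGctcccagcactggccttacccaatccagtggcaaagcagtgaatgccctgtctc
H2-Aa: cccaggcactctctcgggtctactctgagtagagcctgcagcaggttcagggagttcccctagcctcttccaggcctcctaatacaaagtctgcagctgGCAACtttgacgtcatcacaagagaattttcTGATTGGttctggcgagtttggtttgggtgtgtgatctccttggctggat

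In H2-Eb1 the cores began 91 and 61 bases before the start, with 25 bases between them. In H2-Aa they began 81 and 50 bases before it, with 26 bases between them. The 2 cores were picked after these windows had been read. In windows of 300 bases around 32851 starts, searched on both strands, 35.2% held GCAAC, 7.82% held TGATTGG, and 0.298% held GCAAC followed on the same strand by TGATTGG after 15 to 45 bases. The letters of this ordered pair were not in the windows of H2-DMa (2 windows) or H2-DMb1. The table had no entry for H2-Ab1, Cd74 or Ciita.

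The arrays carried the signal of liver, with a mean over 7 hepatocyte markers (albumin, Alb, among them) between 14.32 and 14.45 on each array. At the brightest probe set, E2f3 was 0.25 ± 0.07 (SE) lower in 3aKO than in wt (limma, adjusted p = 0.13). In 3bKI E2f3 was 0.24 ± 0.09 lower than in wt (limma adjusted p = 0.049). E2f1 was 0.25 ± 0.11 lower in 1KI than in wt (limma adjusted p = 0.086). The sources used here do not say where these probes lie relative to the altered sequences, so they do not check the labels. Spiked-in hybridization controls averaged 9.83 to 11.5 in wt, with wt replicates 1 and 2 at the level of all 15 knock-in arrays and no 3aKO array there. In 3bKI the spiked-in poly-A controls were at 13.8 on every array, against at most 9.70 in wt and 3aKO. RNA integrity was read as the 3′ minus 5′ difference of the Actb and Gapdh controls, which is larger in less intact RNA. This difference was lower in 3bKI, at 0.275 to 0.36, against at least 0.475 in wt and 3aKO. These measures move with genotype in 3bKI and cannot be told apart from it, and their part in the results below was not tested beyond the alternatives given.

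In wt liver the class II signals were narrow. H2-Aa ran from 8.87 to 9.57 with a median of 9.38, H2-Ab1 from 8.74 to 9.48 with a median of 9.09, and Cd74 from 8.96 to 9.82 with a median of 9.48 (n = 12, normalization 1). H2-Eb1 ran from 6.55 to 6.95 with a median of 6.74, H2-DMa from 6.87 to 7.30 with a median of 7.14, and Ciita from 5.64 to 6.12 with a median of 5.81. The SD in wt was 0.26 at most, for Cd74. For most of the 6 genes the spread was wider in 3aKO and 1KI, but Ciita had an SD of 0.12 in both wt and 3aKO. For H2-Aa the SD was 0.19 in wt, 0.76 in 3aKO and 0.94 in 1KI, and for H2-Eb1 it was 0.12, 0.20 and 0.78.

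**Figure D1:**
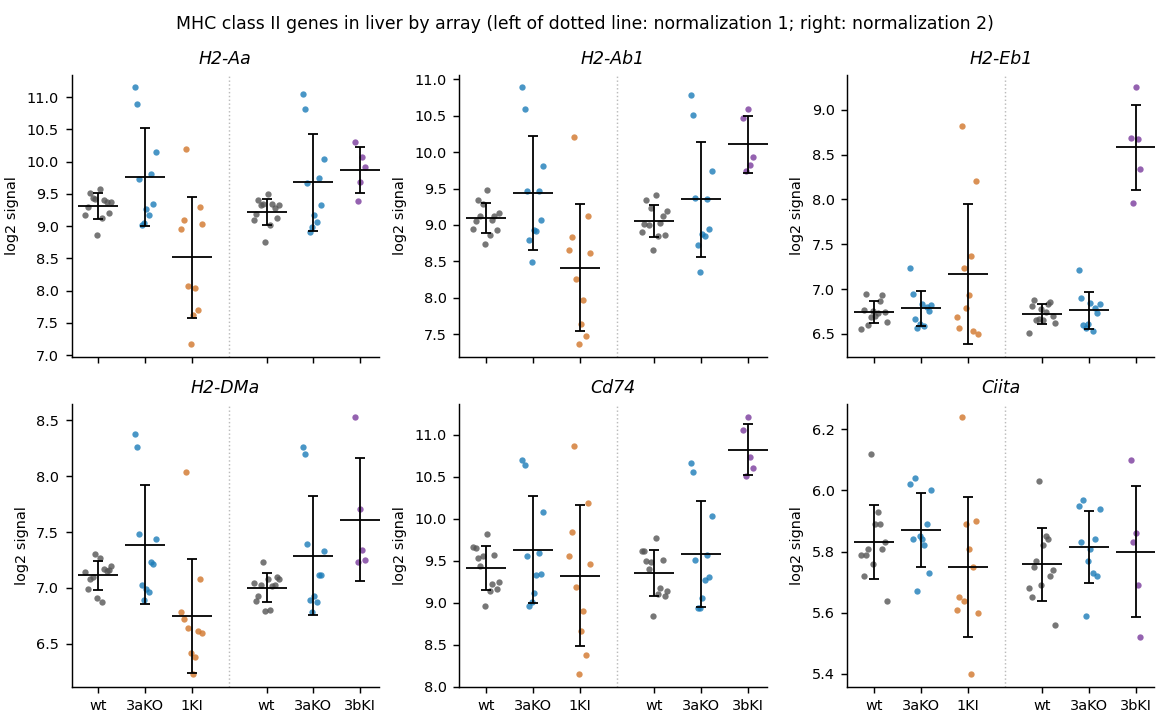
Log2 signal (vertical axes) of the main probe set of 6 class II genes, 1 point per array, with the mean and SD of each group as bars. To the left of the dotted line are the 12 wt, 10 3aKO and 10 1KI arrays of normalization 1, and to the right the same wt and 3aKO arrays and 5 3bKI arrays in normalization 2. H2-Eb1 is at 7.96 or above on all 3bKI arrays and at 7.23 or below on all wt and 3aKO arrays.

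3aKO was set against wt to read the effect of losing E2f3a on young liver. In 3aKO none of the 6 class II genes passed an adjusted p of 0.05 in limma, and none had an unadjusted p under 0.05 (of all genes 0.176% passed). H2-Aa in 3aKO ran from 9.02 to 11.15 with a median of 9.54. Replicates 1 and 2 were the high ones, at 11.15 and 10.90, replicate 10 followed at 10.15, and 5 of 10 arrays were above the highest wt array while the lowest ones lay within wt. The difference was 0.45 ± 0.27 (SE; 95% interval -0.11 to 1.00, adjusted p = 0.53).

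The same 2 arrays were high in most of the group. In 3aKO replicates 1 and 2 H2-Ab1 was 10.89 and 10.59, Cd74 was 10.70 and 10.64, and H2-DMa was 8.38 and 8.26, while the highest wt values were 9.48, 9.82 and 7.30. H2-Eb1 in these arrays was 7.23 and 6.95, of which 1 lay above the highest wt array (6.95), and the difference of H2-Eb1 between 3aKO and wt was 0.04 ± 0.18 (adjusted p = 0.95). Ciita was 6.02 and 5.84, within the wt range. The median difference of the 6 genes was 0.25, beside -0.01 over all genes, and no gene of the 6 had groups that did not overlap (0.011% of all genes).

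1KI was set against wt to read the effect of the E2F1 knock-in on liver. In 1KI the I-A genes were low on most arrays, and 1 of the 6 class II genes passed in limma, H2-Aa, which fell (of all genes 27.6% passed and 17.5% passed as lower). H2-Aa in 1KI ran from 7.17 to 10.19 with a median of 8.51. Replicates 5, 6 and 8 were lowest, at 7.17, 7.63 and 7.70, 5 of 10 arrays were below the lowest wt array, and replicate 3 was above the highest. H2-Aa fell by 0.80 ± 0.27 on the log2 scale (adjusted p = 0.027), which is 1.74-fold, with 9 of 10 arrays below the wt mean. This is the main 1 of 4 H2-Aa probe sets, and the others did not pass: 1435290_x_at differed by -0.58 ± 0.24 (adjusted p = 0.065), 1438858_x_at by -0.13 ± 0.09 (adjusted p = 0.32) and the dim 1443783_x_at by -0.05 ± 0.07 (adjusted p = 0.65). With the 4 averaged, H2-Aa differed by -0.39 (adjusted p = 0.054). In whole liver, fewer cells of a type and less RNA per cell cannot be told apart.

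This call rests on few arrays. Without 1KI replicate 5, 6 or 8 the adjusted p of H2-Aa was 0.067, 0.058 and 0.056, and without replicate 3 it was 0.0035. Replicate 6 stands apart on RNA quality: its 3′ minus 5′ difference was 1.75, against 0.445 to 0.665 on the other 1KI arrays, and its poly-A and hybridization controls were the highest of the 1KI arrays. With RNA integrity as a covariate H2-Aa fell by 0.74 (adjusted p = 0.04). The count of class II genes that passed, in either direction, was 0 without 1KI replicate 5 or 6, 2 without replicate 9 or 10 and 3 without replicate 2 or 3. Without replicate 2 or 10 it includes H2-Eb1, which was higher in 1KI. Without replicate 8 the count was 1, and this was H2-Eb1 as higher. Only wt has arrays at both hybridization control levels, so fits with that level blocked, here and below, are less precise. When hybridization control level was blocked, no class II gene passed, and the change of H2-Aa was -0.72 (adjusted p = 0.45). Within the higher level, where only 2 wt arrays lie, it was also -0.72 (adjusted p = 0.60), with H2-Aa at 9.17 and 9.30 in those wt arrays.

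The other I-A gene was also low on most 1KI arrays but did not pass at its main probe set. H2-Ab1 in 1KI ran from 7.36 to 10.21 with a median of 8.43, and 7 of 10 arrays were below the lowest wt array. Its difference was -0.68 ± 0.27 (limma adjusted p = 0.053), and -0.66 and -0.74 at its other 2 probe sets, which passed (adjusted p = 0.023 and 0.038). Those 2 were fitted and adjusted separately, among all probe sets with 1 symbol. H2-DMa ran from 6.23 to 8.04 with a median of 6.62, with 8 of 10 arrays below the lowest wt array and replicate 3 alone above the wt range, and its difference was -0.36 ± 0.17 (adjusted p = 0.11).

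Cd74 lay on both sides of the wt range in 1KI. It ran from 8.15 to 10.86 in 1KI with a median of 9.32, with 3 arrays above the highest and 4 below the lowest wt array, and its difference was -0.09 ± 0.24 (95% interval -0.59 to 0.40, adjusted p = 0.81). H2-Eb1 ran from 6.50 to 8.82 with a median of 6.86. Replicates 3 and 9 were high at 8.82 and 8.20, and replicates 7 and 4 came next at 7.37 and 7.24. The other 6 arrays lay between 6.50 and 6.93, of which 2 were below the lowest wt array (6.55). The mean difference of H2-Eb1 was 0.42 ± 0.18, without passing (adjusted p = 0.082), and it passed without 1KI replicate 2, 8 or 10 (adjusted p = 0.049, 0.044 and 0.042). Without replicate 3 it was 0.24 (adjusted p = 0.2). Ciita differed by -0.08 ± 0.07 (adjusted p = 0.39). The median difference of the 6 genes was -0.22, beside -0.05 over all genes, and no gene of the 6 had groups that did not overlap (1.39% of all genes).

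1KI was also set against 3aKO, the comparison in which 3 of the 6 class II genes passed, all lower in 1KI (of all genes 31% passed and 19% passed as lower). H2-Aa fell by 1.24 ± 0.28 (adjusted p = 0.001), H2-Ab1 by 1.03 ± 0.28 (adjusted p = 0.0045) and H2-DMa by 0.64 ± 0.18 (adjusted p = 0.0054), each with 9 of 10 arrays below the 3aKO mean. Cd74 had a difference of -0.31 ± 0.25 (adjusted p = 0.37) and H2-Eb1 one of 0.38 ± 0.19 (adjusted p = 0.13). The high 3aKO replicates 1 and 2 lie in the reference group here. No gene of the 6 had groups that did not overlap (4.04% of all genes). When hybridization control level was blocked, a fit in which only wt bridges the levels, none of the 3 passed, and their changes were -1.15, -0.92 and -0.58.

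In 3bKI 5 of the 6 class II genes were higher than in wt, H2-Eb1 most of all, and Ciita was not at its main probe set. H2-Eb1 was 8.68, 7.96, 9.25, 8.67 and 8.34 in 3bKI replicates 1 to 5, and between 6.51 and 6.88 in wt and 6.53 and 7.21 in 3aKO of the same normalization. The groups do not overlap, and the lowest 3bKI array is above every wt and 3aKO array. The difference was 1.85 ± 0.12 (SE) from wt, which is 3.62-fold, and 1.82 ± 0.13 from 3aKO. H2-Eb1 has a single probe set here.

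Cd74 was 11.06, 10.51, 11.21, 10.73 and 10.60 in 3bKI replicates 1 to 5 and at most 9.77 in wt. All 5 arrays were above every wt array, and 3 were above the highest 3aKO array, which is replicate 1 at 10.66. The difference was 1.47 ± 0.22 from wt, or 2.77-fold, and 1.24 ± 0.23 from 3aKO.

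H2-Ab1 was 10.47, 9.74, 10.59, 9.82 and 9.93, all above the highest wt array (9.41) and none above the highest 3aKO array (10.78). H2-Aa was 10.30, 9.39, 9.68, 10.07 and 9.91, of which replicate 2 lay within the wt range, whose highest value was 9.50. H2-DMa was 8.53, 7.23, 7.71, 7.34 and 7.25, with replicate 1 well above the others and replicate 2 at the highest wt value. The differences from wt were 1.06 ± 0.26 for H2-Ab1, 0.64 ± 0.25 for H2-Aa and 0.61 ± 0.20 for H2-DMa.

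Ciita, the coactivator of the group, was 6.10, 5.83, 5.86, 5.69 and 5.52 at its main probe set. These values spread over the wt range of 5.56 to 6.03, and the difference was 0.04 ± 0.07. As a count with no test, 5 of the 6 genes were past the threshold as higher in 3bKI than in wt (of all genes 13.4%), and for 3 of them the groups did not overlap (2.7%). Against 3aKO the count was 3 (16.5%), and 1 gene, H2-Eb1, did not overlap (5.41%). The medians of the 6 differences were 0.85 and 0.54, beside 0.00 and 0.02 over all genes. These comparisons share their wt or 3aKO arrays with those of 1KI.

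The 3bKI differences were smaller with RNA integrity in the fit. With RNA integrity as a covariate the difference from wt was 1.49 for H2-Eb1, 0.94 for Cd74, 0.55 for H2-Ab1, 0.21 for H2-Aa and 0.22 for H2-DMa, and 1 gene, H2-Eb1, stayed past the threshold. Within the higher hybridization control level, with wt replicates 1 and 2 as the only wt arrays, the differences were 1.92, 1.21, 1.15, 0.73 and 0.65, close to those over all wt arrays, but 2 genes, H2-Eb1 and Cd74, were past the threshold. With 1 array left out the count was 4 in most fits, 5 without wt replicate 7 or 3bKI replicate 2 and 3 without 3bKI replicate 1, and H2-Aa stayed past the threshold in 2 of 17.

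**Figure D2:**
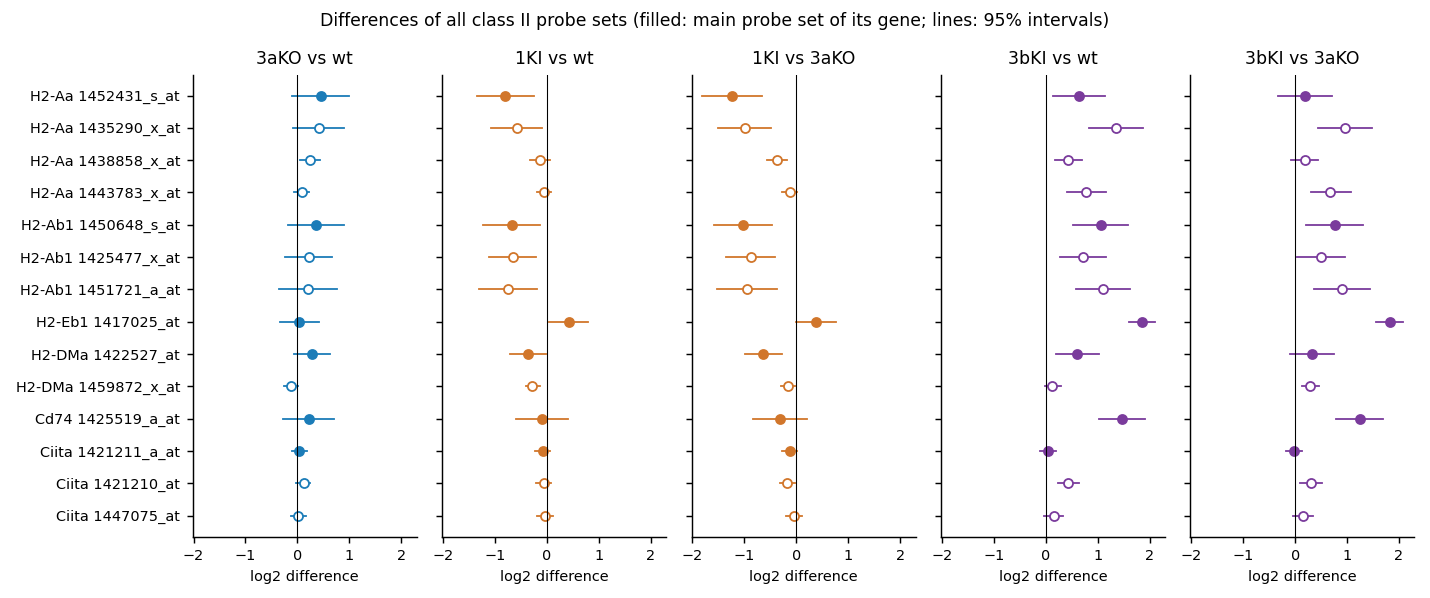
Log2 differences (horizontal axes) of all 14 class II probe sets in 5 comparisons, with 95% intervals as lines; filled points are the main probe set of a gene. In 1KI against wt the H2-Aa and H2-Ab1 points lie below 0 and H2-Eb1 lies at 0.42, and in 3bKI against wt H2-Eb1 lies at 1.85; the 3bKI panels are a description, since the genes were chosen on them.

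The probe sets of a gene did not always move by the same amount. H2-Aa differed between 3bKI and wt by 0.64 ± 0.25 at the main probe set 1452431_s_at and by 1.35 ± 0.25 at 1435290_x_at. At the latter all 5 arrays (10.25, 9.59, 10.60, 9.19 and 9.99) were above the highest wt array at 8.82. The order of the 3bKI arrays also differed between them, since replicate 3 was highest at 1435290_x_at and replicate 1 at the main probe set. The other H2-Aa probe sets differed by 0.43 ± 0.12 (1438858_x_at) and 0.78 ± 0.18 (1443783_x_at), the last with a wt mean of 2.63, near the lowest value of the table.

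For H2-Ab1 the 3 probe sets ran together, with 1.06, 0.72 and 1.10 in 3bKI against wt. For Ciita the main probe set 1421211_a_at differed by 0.04, while 1421210_at was 5.97, 5.97, 5.29, 5.52 and 5.93 in 3bKI against a wt mean of 5.30 and differed by 0.43 ± 0.10. The third, 1447075_at, differed by 0.16 ± 0.09. For H2-DMa the dimmer probe set 1459872_x_at fell by 0.28 ± 0.07 in 1KI against wt (adjusted p = 0.0016), with 10 of 10 arrays below the wt mean, and did not show the high value of 1KI replicate 3. Probe sets ending in _x_at can bind related transcripts, and which sequences these bind was not tested.

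H2-Eb1 and H2-Aa did not run in parallel across the arrays. Levels of different probe sets are not comparable, so only the way their difference moves across arrays is read. In wt (n = 12) H2-Eb1 minus H2-Aa was -2.57 ± 0.21 (SD), against -2.98 ± 0.59 for the 10 3aKO arrays and -1.35 ± 0.80 for the 10 1KI arrays. Of the 1KI arrays 7 of 10 lay above the highest wt array, and of the 3aKO arrays 5 of 10 lay below the lowest. In normalization 2 it was -2.50 in wt and -1.29 ± 0.49 (SD, n = 5) in 3bKI, with 5 of 5 arrays above the highest wt array.

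In 3aKO replicates 1 and 2 H2-Aa was high and H2-Eb1 was 7.23 and 6.95. In 1KI replicates 5 and 6 H2-Aa was low, at 7.17 and 7.63, while H2-Eb1 was 6.79 and 6.93. In 1KI replicates 3 and 9, and in all 3bKI arrays, H2-Eb1 itself was high. So in those arrays a high H2-Eb1 came with H2-Aa from 9.29 to 10.30. H2-Aa of 10.90 and above came with H2-Eb1 of 7.23 or less. The next 1KI arrays in H2-Eb1, replicates 7 and 4, were above the highest wt array in H2-Eb1 but below the lowest in H2-Aa. Their H2-Eb1 minus H2-Aa was -0.67 and -0.83. H2-Eb1 averaged 6.89 over the arrays of normalization 1, near the median of all genes (6.91). Without detection calls, whether its probe set could follow H2-Aa to lower signal was not tested.

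**Figure D3:**
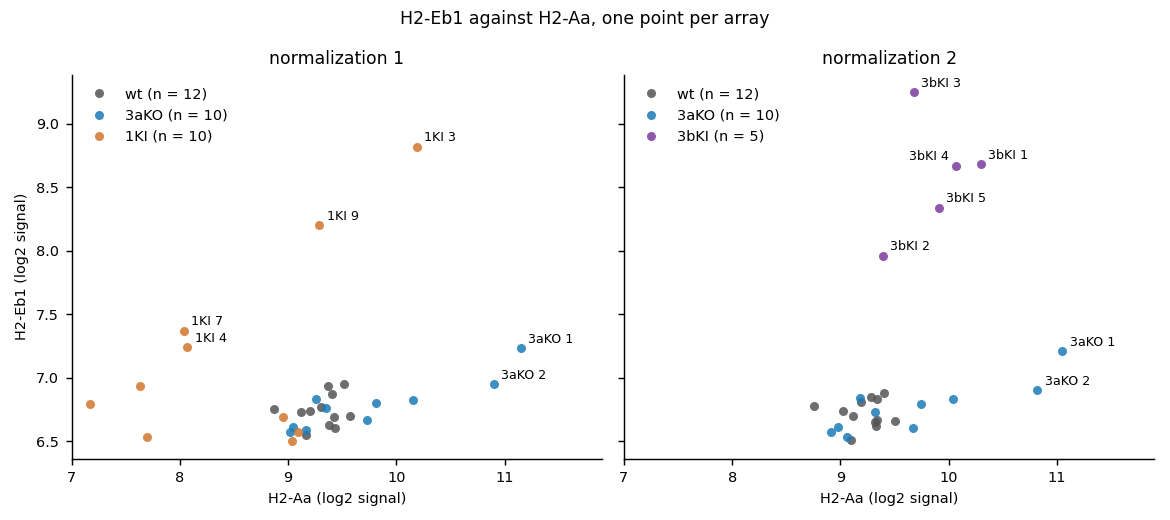
H2-Eb1 (vertical axis) against H2-Aa (horizontal axis), both as log2 signal, 1 point per array, in normalization 1 (left) and normalization 2 (right). 1KI replicates 3 and 9 and the 5 3bKI arrays lie above 7.9 in H2-Eb1, while 3aKO replicates 1 and 2 lie farthest right in H2-Aa with H2-Eb1 at 7.23 and 6.95 in normalization 1.

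Cd74 also shifted relative to H2-Aa. Cd74 minus H2-Aa was 0.10 in wt, -0.13 in 3aKO and 0.80 in 1KI, where 9 of 10 arrays lay above the highest wt array and 10 of 10 above the highest 3aKO array. In normalization 2 it was 0.13 in wt and 0.95 in 3bKI, with 5 of 5 arrays above the highest wt array. H2-Ab1 minus H2-Aa was -0.22 in wt, -0.32 in 3aKO and -0.10 in 1KI, and it was 0.24 in 3bKI against -0.18 in wt of normalization 2. H2-DMa minus H2-Aa was -2.2 in wt, -2.37 in 3aKO and -1.77 in 1KI, and -2.26 in 3bKI against -2.22 in wt of normalization 2. All these use the main H2-Aa probe set, which differed by 0.64 between 3bKI and wt. At 1435290_x_at H2-Aa differed by 1.35, beside 1.47 for Cd74 and 1.06 for H2-Ab1. The 3bKI shifts therefore depend on the H2-Aa probe set used. These differences are between members and are given without a test.

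Across arrays, with group means removed, H2-Aa and H2-Ab1 were correlated at r = 0.98 and H2-Aa and Cd74 at r = 0.96 (n = 32 arrays of normalization 1). H2-Aa and H2-DMa had r = 0.88, H2-Aa and H2-Eb1 r = 0.56, and H2-Aa and Ciita r = 0.39. Within wt alone (n = 12) these were 0.93 for H2-Ab1, 0.66 for Cd74, 0.69 for H2-DMa, 0.19 for H2-Eb1 and 0.18 for Ciita. Within 3aKO (n = 10) H2-Eb1 reached 0.89 with H2-Aa, where replicates 1 and 2 are both high. These arrays share a normalization and a tissue, and the values are a description.

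H2-Ea, the partner of H2-Eb1 in I-E, had no call in 3bKI against wt (0.03 ± 0.07, limma adjusted p = 0.79). Its brightest probe set was 7.58 ± 0.12 (SD) in wt, 7.64 ± 0.14 in 3aKO and 7.69 ± 0.22 in 1KI, and 7.59 ± 0.16 in 3bKI against 7.56 ± 0.13 in wt of normalization 2. The other 2 H2-Ea probe sets had group means from 4.91 to 5.07 and from 3.16 to 3.31. Some H2 haplotypes make no H2-Ea transcript, and the haplotypes carried by these mice were not determined here.

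Other genes of the class II pathway were counted from lists. Of the accessory genes, 12 of 14 were measured, and none passed in 3aKO against wt. Between 1KI and wt 1 rose and 2 fell (of all genes 27.6% passed and 17.5% passed as lower). Ctsl, a lysosomal protease, rose by 0.45 ± 0.08 (limma adjusted p = 5.6e-05), and Ctss, the protease that trims the invariant chain in antigen-presenting cells, fell by 0.68 ± 0.16 (adjusted p = 0.0016), with 9 of 10 arrays below the wt mean. Marchf1, the ligase that takes class II molecules off the surface, fell by 0.19 ± 0.07 (adjusted p = 0.042).

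Of the 12 accessory genes 3 rose in 3bKI against wt and none fell (of all genes 29.2% passed and 13.4% passed as higher). Lgmn, a lysosomal protease, rose by 0.47 ± 0.12 (adjusted p = 0.0022), Ifi30, a lysosomal thiol reductase, by 0.37 ± 0.08 (adjusted p = 0.0011) and Cd80, a costimulatory ligand, by 0.21 ± 0.08 (adjusted p = 0.037), each in 4 of 5 arrays above the wt mean. Against 3aKO 5 rose (of all genes 34.2% passed and 16.5% passed as higher), among them Lgmn and Ifi30 again. The list medians were -0.06 in 1KI and 0.13 in 3bKI against wt, beside -0.05 and 0.00 over all genes. When hybridization control level was blocked, none of the 12 passed in 1KI or 3bKI against wt.

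Of 11 transcription factors and cofactors of class II promoters, all were measured and none passed in 3aKO against wt. Between 3bKI and wt 2 rose and 4 fell (of all genes 29.2% passed and 13.4% passed as higher). Spi1, a myeloid and B cell factor, rose by 0.60 ± 0.11 (limma adjusted p = 8.8e-05), as did Rfxank, a subunit of the RFX complex that binds the X box (0.50 ± 0.09, adjusted p = 0.00015), both in 5 of 5 arrays. Creb1 fell by 0.67 ± 0.07 (adjusted p = 3.9e-08) and the acetyltransferase gene Ep300 fell by 0.28 ± 0.08 (adjusted p = 0.0077). With RNA integrity as a covariate none of the 11 passed, and without 3bKI replicate 3 2 fell. In 1KI against wt 1 of the 11 rose and 1 fell (of all genes 27.6% passed). Spi1 rose by 0.20 ± 0.07 (adjusted p = 0.039) and Creb1 fell by 0.22 ± 0.05 (adjusted p = 0.0023). When hybridization control level was blocked neither passed. The count of 1 higher was lost in 8 of 14 alternatives and held in 14 of 22 fits with 1 array left out. The count of 1 lower was lost in 2 of the 14 and held in all 22.

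Of 17 measured genes of the interferon gamma response, none passed in 3aKO against wt. Of the 17, 6 fell and none rose in 1KI against wt (of all genes 17.5% passed as lower). The list median was -0.20 beside -0.05 over all genes. Ifngr1, the ligand-binding receptor chain, fell by 0.37 ± 0.07 (limma adjusted p = 0.00013) in 10 of 10 arrays, the GTPase genes Gbp6 by 0.59 ± 0.19 (adjusted p = 0.018) and Gbp2 by 0.85 ± 0.28 (adjusted p = 0.023), and the receptor kinase gene Jak2 by 0.20 ± 0.07 (adjusted p = 0.032). The count was 3 without wt replicate 3 or 1KI replicate 7, 8 or 10, and 0 when hybridization control level was blocked. Since only wt bridges the levels, a count of 0 with that block does not show that these genes are unchanged. Against 3aKO 10 of the 17 fell (of all genes 19% passed as lower), with a median of -0.29, and 0 with that block.

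A single gene of the interferon gamma list rose in 3bKI against wt (1 of 17, while 13.4% of all genes passed as higher). This was Irf1, a factor downstream of the receptor, by 0.50 ± 0.15 (limma adjusted p = 0.012) in 5 of 5 arrays. Jak2 fell by 0.37 ± 0.07 (adjusted p = 0.00023), and the list median was -0.07. The mean of the list was 9.10 in 3bKI replicate 1 and 8.52 in replicate 3, and between 8.04 and 8.14 in the others, against 8.21 to 8.55 in wt. The last 3 arrays, replicates 2, 4 and 5, were below the lowest wt array on this list. The part of interferon gamma in the class II values was not tested. Without 3bKI replicate 1 none of the list rose and 4 fell, without replicate 3 none rose, and without replicate 2 3 rose. Leaving out wt replicate 2 or 7 or 3bKI replicate 5 gave 2 lower.

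Of the class I presentation genes, 14 of 17 were measured and none passed in 3aKO against wt. The 3bKI arrays had 4 higher and 2 lower than wt (of all genes 29.2% passed and 13.4% passed as higher). Tap1, a subunit of the peptide transporter, rose by 0.97 ± 0.18 (limma adjusted p = 9e-05) and Calr by 0.28 ± 0.07 (adjusted p = 0.0018), both in 5 of 5 arrays, as did Tapbp (0.29 ± 0.09, adjusted p = 0.013), while Erap1, a peptide-trimming protease, fell by 0.47 ± 0.08 (adjusted p = 4.9e-05). In 1KI against wt 1 rose, Tapbp by 0.23 ± 0.08 (adjusted p = 0.026), and 2 fell, Erap1 by 0.36 ± 0.09 (adjusted p = 0.0018) and Pdia3 by 0.40 ± 0.12 (adjusted p = 0.011). Of all genes 27.6% passed there and 17.5% passed as lower. When hybridization control level was blocked, none of the 14 passed in 1KI or 3bKI against wt. The 3bKI count of 4 higher was 2 without 3bKI replicate 1 or 3 and 6 without replicate 4, and 1 was lower without replicate 1 or 5.

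Markers of the cells that carry class II molecules are given beside these results, and their part in them was not tested. The 5 pan-leukocyte genes averaged 7.22 to 7.74 in wt. In 3aKO replicates 1 and 2, where H2-Aa was high, they averaged 8.22 and 8.49, and in the other 8 arrays 7.25 to 7.67. In 1KI replicate 3 they averaged 8.28, in replicate 9 7.44, and in the other 8 arrays 6.86 to 7.29. None of the 5 passed in 3aKO, 1KI or 3bKI against wt. In 1KI against 3aKO 2 fell (of all genes 19% passed as lower), Cd53 by 0.56 ± 0.14 (limma adjusted p = 0.0021) and Cd52 by 0.58 ± 0.17 (adjusted p = 0.0071). Without 1KI replicate 3 these counts were 3 lower in 1KI against wt and 5 lower against 3aKO. Of 14 other alternatives 5 called 1 lower in 1KI against wt and 5 called 1 higher in 3bKI against wt, as did leaving out wt replicate 3 or 3bKI replicate 2, and none of the 5 fell against 3aKO when hybridization control level was blocked.

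All 16 macrophage and Kupffer cell markers were measured, with list means from 8.65 to 9.02 in wt. They were 9.35 and 9.60 in 3aKO replicates 1 and 2, 9.73 in 1KI replicate 3 and 9.12 in 1KI replicate 9, and 8.30 to 8.82 in the other 1KI arrays. Of the 16 none passed in 1KI against wt, and the list median was -0.10, but 4 passed as lower without 1KI replicate 3 and 2 without replicate 9, and 7 of 14 other alternatives called 1 to 3 lower. The defining markers Adgre1 (-0.10 ± 0.13, limma adjusted p = 0.61) and Clec4f (0.06 ± 0.09, adjusted p = 0.68) did not pass. Against 3aKO 4 of the 16 fell in 1KI (of all genes 19% passed as lower), among them Timd4 by 0.64 ± 0.15 (adjusted p = 0.0016) and Marco by 0.90 ± 0.26 (adjusted p = 0.0079).

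In 3bKI the macrophage list means were 9.20, 8.48, 9.14, 9.00 and 8.74, against 8.60 to 8.97 in wt of normalization 2. Replicate 2, below every wt array on this list, had H2-Eb1 of 7.96 and Cd74 of 10.51, above every wt array. Of the 16 markers 3 rose (of all genes 13.4% passed as higher). These were the secreted protein gene Cd5l by 0.54 ± 0.15 (limma adjusted p = 0.0068), the folate receptor gene Folr2 by 0.41 ± 0.13 (adjusted p = 0.017) and the complement gene C1qc by 0.52 ± 0.17 (adjusted p = 0.02). The scavenger receptor gene Cd163 fell by 1.06 ± 0.26 (adjusted p = 0.0025). Adgre1 (0.24 ± 0.11, adjusted p = 0.092) and Clec4f (0.24 ± 0.11, adjusted p = 0.12) did not pass. The count of 3 was 7 without 3bKI replicate 2, 5 without replicate 5, 2 without replicate 4 and 1 without replicate 3, and it was 0 with RNA integrity as a covariate.

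Of the dendritic cell markers 12 of 13 were measured, with list means of 5.64 to 5.83 in wt and 5.43 to 5.74 in 1KI. Of these 7 fell and none rose in 1KI against wt (of all genes 17.5% passed as lower). The list median was -0.15 beside -0.05 over all genes. The maturation marker Cd83 fell by 0.46 ± 0.11 (limma adjusted p = 0.0015), the uptake receptor genes Ly75 by 0.34 ± 0.09 (adjusted p = 0.0042) and Clec10a by 0.38 ± 0.11 (adjusted p = 0.0079), and Siglech, of plasmacytoid cells, by 0.23 ± 0.06 (adjusted p = 0.006). The defining marker Itgax did not pass (-0.14 ± 0.08, adjusted p = 0.18). These are dim probe sets, with a wt mean of 6.56 or less for the 4 named as falling. The count was 1 when hybridization control level was blocked. It was 0 among genes above the median signal, but that filter leaves out probe sets as dim as these 4, so this 0 does not test them. In 3bKI against wt 1 of 12 fell, Ly75 by 0.54 ± 0.11 (adjusted p = 0.00055), and none rose (of all genes 29.2% passed).

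Of the B cell markers 12 of 15 were measured, and their list means were 5.43 to 5.70 in wt and 5.51 to 5.80 in 1KI. The 1KI arrays had 1 higher than wt and none lower (of all genes 27.6% passed). This was Pou2af1, by 0.24 ± 0.09 (limma adjusted p = 0.042) from a wt mean of 3.36. The 3bKI arrays had 3 higher than wt (of all genes 13.4% passed as higher). These were the IgM receptor gene Fcmr by 0.25 ± 0.07 (adjusted p = 0.0059) and the B cell receptor chain genes Cd79b by 0.27 ± 0.08 (adjusted p = 0.011) and Cd79a by 0.23 ± 0.09 (adjusted p = 0.049). The defining marker Ms4a1 differed by -0.02 (adjusted p = 0.93). The list mean in 3bKI was 5.46 to 5.62, within the 5.36 to 5.64 of wt, and the count of 3 was 1 without 3bKI replicate 4 and 0 with RNA integrity as a covariate. The count of 1 in 1KI was 0 in 10 of 22 fits with 1 array left out.

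**Figure D4:**
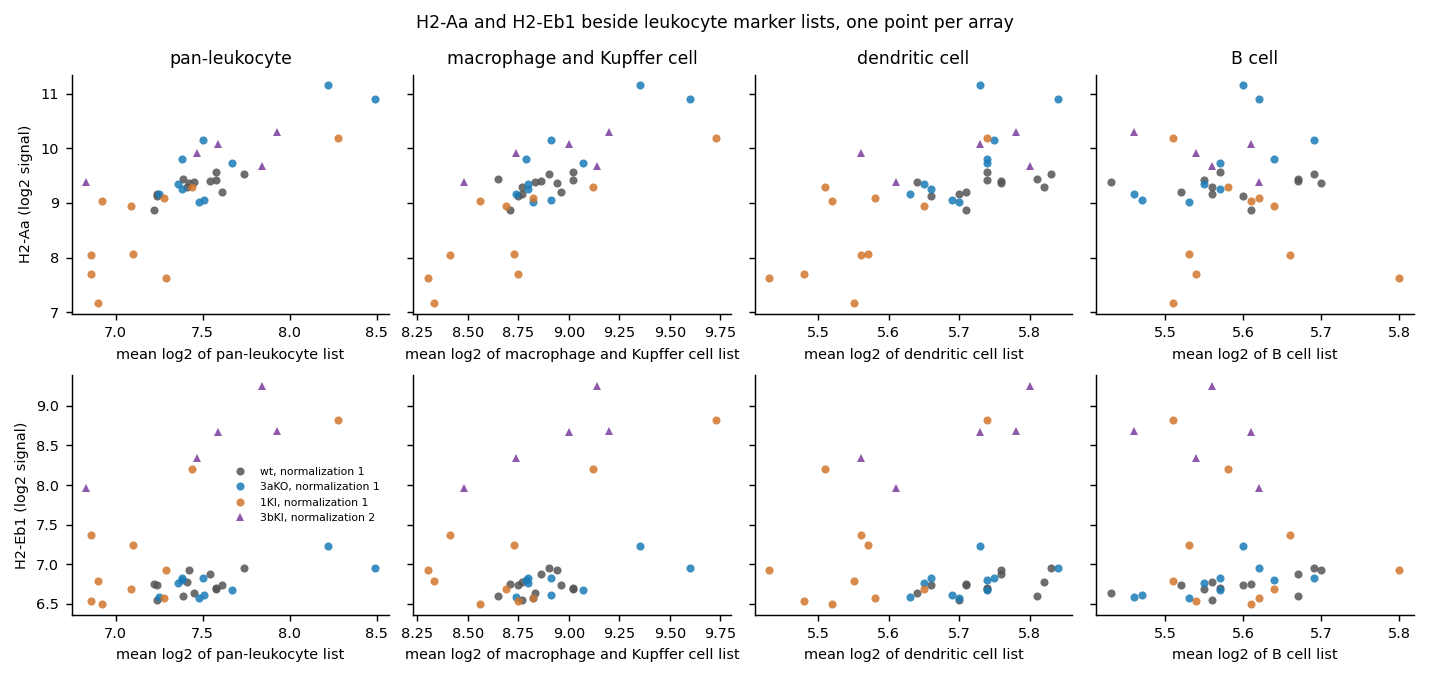
H2-Aa (upper row) and H2-Eb1 (lower row) as log2 signal against the mean log2 signal of 4 marker lists (columns), 1 point per array; circles are normalization 1 and triangles the 3bKI arrays of normalization 2. 3aKO replicates 1 and 2 are high in H2-Aa, at 11.15 and 10.90, and in pan-leukocyte signal, at 8.22 and 8.49, and 3bKI replicate 2 has H2-Eb1 at 7.96 with a pan-leukocyte mean of 6.83.

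The shares of all genes beside the next counts were 27.6% passing in 1KI against wt (17.5% as lower) and 29.2% in 3bKI against wt (13.4% as higher). Of 11 measured T and NK cell markers 2 fell and none rose in 1KI against wt, and none passed in 3bKI against wt. Of 6 monocyte and neutrophil markers 1 rose, the neutrophil gene S100a8 by 0.65 ± 0.23 (limma adjusted p = 0.031), and 1 fell, the monocyte receptor gene Cx3cr1 by 0.52 ± 0.10 (adjusted p = 0.00017), in 1KI against wt. None of the 6 passed in 3bKI against wt. Of 9 sinusoidal endothelial markers 1 rose and 2 fell in 1KI, and 2 rose in 3bKI, against wt. Hepatocyte markers had 1 rise and 1 fall of 7 in 1KI and none in 3bKI, and of 9 cholangiocyte and stellate cell markers 2 fell in 1KI and 2 rose and 2 fell in 3bKI. These counts are unsteady. With 1 array left out they ran from 2 to 4 for T and NK cell markers lower in 1KI, from 0 to 2 for monocyte and neutrophil markers higher in 1KI, from 1 to 2 for endothelial markers lower in 1KI, and from 0 to 3 for cholangiocyte and stellate cell markers lower in 1KI or higher in 3bKI. S100a8 did not pass without wt replicate 9 or 12 or 1KI replicate 3, 8 or 9.

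The genes whose signal ran most like that of the class II members across arrays included several known from leukocytes. Over 32 arrays of normalization 1, with group means removed, the 10 highest correlations with the mean of H2-Aa, H2-Ab1, H2-Eb1 and Cd74 among genes above the median signal were those of Itgal, Slc11a1, Mpeg1, Tyrobp, Pld4, Tmsb4x, Rac2, C1qc, Ctss and Il18bp, from 0.91 to 0.86. Without 1KI replicate 3 and 3aKO replicate 1 they were 0.84 to 0.72. Within wt they ran from 0.33 for Mpeg1 to 0.83 for Itgal, within 3aKO from 0.85 to 0.96 and within 1KI from 0.86 to 0.93.

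These 10 genes differed in how they changed between groups. Itgal, an integrin chain of leukocytes, fell in 1KI against wt by 0.48 (limma adjusted p = 0.025), as Ctss did, while Slc11a1, a metal transporter of phagocytes, had a difference of 0.19 (adjusted p = 0.22). In 3bKI against wt Slc11a1 rose by 0.54 (adjusted p = 0.0027), Tyrobp, a signalling adaptor of myeloid cells, by 0.56 (adjusted p = 0.013) and Rac2 by 0.50 (adjusted p = 0.0032). Itgal (0.05, adjusted p = 0.87), Mpeg1 (-0.07, adjusted p = 0.80) and Ctss (-0.03, adjusted p = 0.91) did not pass there. None of the 10 passed in 3aKO against wt.

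The H2 members lie among other genes of the H2 region, and 70 measured genes that are not members lie between H2-K1 and H2-D1 in the RefSeq order. None of the 70 passed in 3aKO against wt. Between 1KI and wt 21 rose and 6 fell, which is 38.6% beside 27.6% of all genes (17.5% of all genes passed as lower). In 3bKI against wt 24 rose and 3 fell, also 38.6%, beside 29.2% of all genes, and against 3aKO 31 rose and 2 fell, 47.1% beside 34.2%. Most of the neighbours that passed rose. Of all genes 13.4% passed as higher in 3bKI against wt and 16.5% against 3aKO. The cause was not tested. The median difference of the 70 was 0.04 in 1KI and 0.14 in 3bKI against wt.

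The values of the neighbours with the smallest p are given side by side for both knock-ins, whose comparisons share the wt arrays. Ring1, a Polycomb subunit gene beside H2-K1, rose by 0.72 ± 0.08 (limma adjusted p = 5e-08) in 1KI and by 1.20 ± 0.12 (adjusted p = 1.5e-08) in 3bKI. For Prrc2a the rise was 0.64 ± 0.07 (adjusted p = 1.3e-08) in 1KI and 0.59 ± 0.09 (adjusted p = 1.4e-05) in 3bKI, and for Ddx39b, an RNA helicase gene, 0.71 ± 0.09 (adjusted p = 7.6e-07) and 0.62 ± 0.10 (adjusted p = 1.5e-05). In 1KI 1110038B12Rik (0.79), Dxo (0.42) and Skiv2l (0.35) completed the first 6, and in 3bKI Gpsm3 (0.60), Nelfe (0.47) and Tap1 (0.97) did. Right beside H2-Eb1, the genes H2-Eb2 (0.08) and H2-Ea (0.03) had differences near 0 in 3bKI, while on either side of Tap1 Psmb9 rose by 0.59 ± 0.19 (adjusted p = 0.019) and Psmb8 differed by 0.05.

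**Figure D5:**
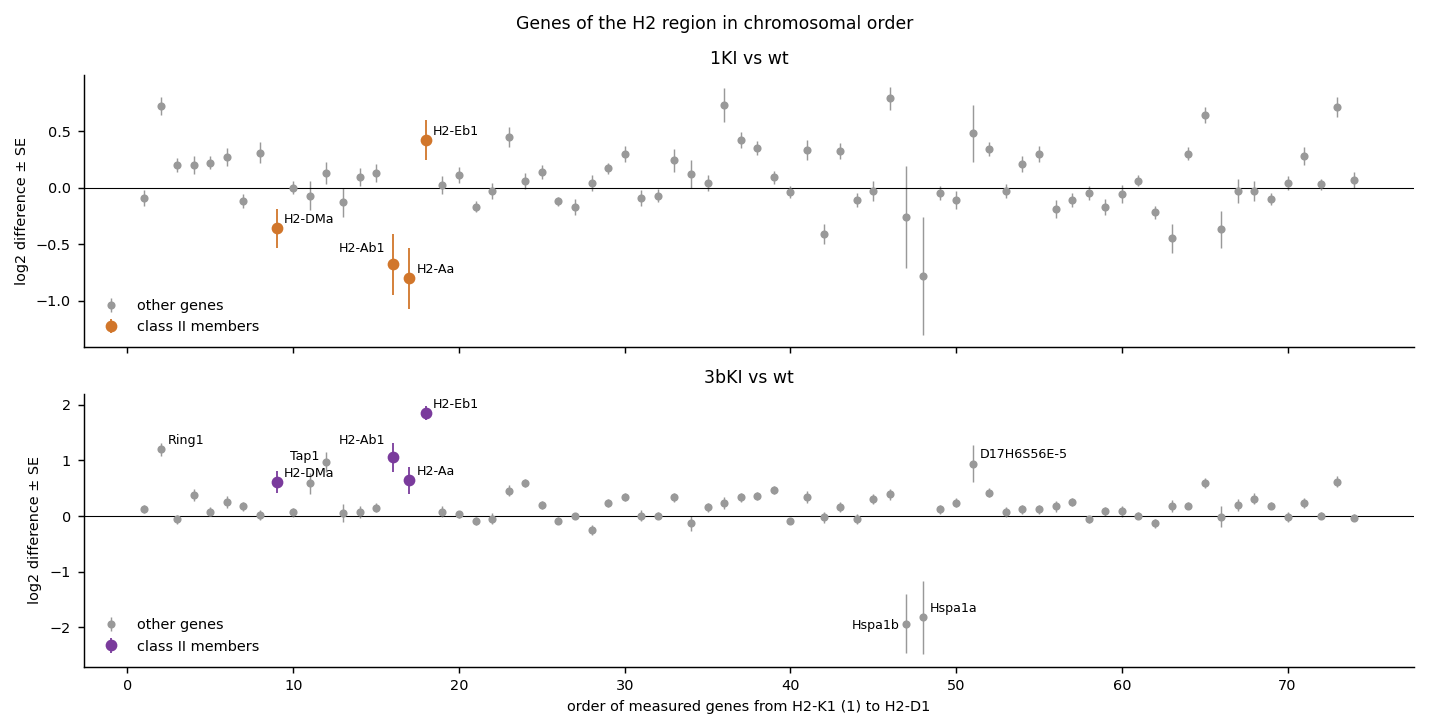
Log2 difference and its SE (vertical axes) of the measured genes from H2-K1 to H2-D1 in chromosomal order (horizontal axis), for 1KI against wt (upper panel) and 3bKI against wt (lower panel), with class II members in colour. H2-Ab1 and H2-Aa lie at -0.68 and -0.80 in 1KI while H2-Eb1 next to them lies at 0.42, and in 3bKI H2-Eb1 (1.85) lies above all other genes of the region.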

How the data were processed

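Liver RNA (5 µg of total RNA per sample, labelled with biotin) was hybridized to Affymetrix arrays, per the labels' protocols. The deposited values are log2 signals normalized by the authors. The sources used here do not state the method or log base, and log2 was inferred because the values run from 2.13 to 15.06. The 59 columns hold 37 arrays in 2 normalizations. In 22 arrays held by both, the 14 class II probe sets differed by at most 0.46 between them. No detection calls or bead or spot counts were used, so the number of arrays limits the precision.

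Probe sets with 1 symbol (34945) were kept, and each of 18193 genes was represented by its brightest one. Linear models (lmFit and eBayes of limma 3.58.1, under R 4.3.3) were fitted over all arrays of a normalization, with Benjamini-Hochberg adjustment over all genes and a threshold of 0.05. Values of member probe sets other than the main one came from a separate fit, adjusted over all 34945 probe sets with 1 symbol. Fold is 2 to the power of the log2 difference, errors are moderated standard errors, and the script was tested on simulated data. The members, lists and rules were chosen with earlier results of these data known. Named were all members, up to 4 genes of smallest p per list, the 10 genes most like the members and up to 6 neighbours; further list genes, defining markers and the neighbours of H2-Eb1 were named after their values were seen. An array has the higher hybridization control level if it is at or above the lowest knock-in array in that normalization (mean of 18 probe sets; poly-A controls are 24). Same-numbered arrays were not paired: correlations of their deviations ran from -0.34 to 0.38. No 2 arrays were identical (highest r 0.997). Besides the alternatives named in the closing section, eBayes with a trend, a further quantile normalization and leaving out _x_at probe sets were tried.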

Additional observations from a re-analysis of the deposited data

Results flagged for a closer look

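In groups of 5 or 10 arrays, 42 combinations of probe set and group were searched for an array far from the rest, of which chance flags about 1 in 20, and 1 was found. The main H2-DMa probe set had a log2 signal of 8.04 in 1KI replicate 3, with the next 1KI array at 7.08 and a gap of 0.53 of the range, above Dixon's critical value. In the same array H2-Ab1 was 10.21, Cd74 10.86, H2-Eb1 8.82 and the pan-leukocyte mean 8.28, each the highest of the 1KI arrays. Without this array the difference of H2-DMa between 1KI and wt was -0.51.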

How the results depend on the processing

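Of the 6 class II genes, 1 passed in 1KI against wt. The count was 2 with the compared groups only, a gene's probe sets averaged, equal array medians, array weights or a sex index covariate. It was also 2 among genes above the median signal, where 4 of the 6 were left. With probe sets averaged H2-Aa itself was -0.39 in 1KI against wt (limma adjusted p = 0.054). The count was 0 with hybridization control level blocked or within its higher level. In 1KI against 3aKO 3 passed, and 0 with that block. In 3bKI against wt 5 were past the threshold, 2 with that block, 2 within the higher level and 1 with RNA integrity as a covariate. In 3bKI against 3aKO 3 were, 5 with probe sets averaged, 1 with the block and 1 with RNA integrity. The cause was not tested. In 3aKO against wt none passed under any alternative run. H2-Eb1 in 3aKO against wt, 0.04, was -0.01 with array weights and ran from -0.01 (without 3aKO replicate 1) to 0.06 with 1 array left out, and Cd74 in 1KI against wt, -0.09, ran from -0.27 to 0.03, with 0.03 without 1KI replicate 5 and 0.01 without replicate 8. With 1 array left out in turn (96 fits) the counts, in either direction, ran from 0 to 0, 0 to 3, 3 to 4, 3 to 5 and 2 to 3. The order is 3aKO against wt, 1KI against wt, 1KI against 3aKO, 3bKI against wt and 3bKI against 3aKO. With a replicate block, though same-numbered arrays share only a number, the counts were 0, 2, 3, 3 and 2. Leaving out the wt arrays of the higher hybridization control level, an alternative chosen after seeing the data, gave -0.81 for H2-Aa in 1KI against wt (limma adjusted p = 0.038). Dim probe sets limit what can be read of Ciita and of 1443783_x_at.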
